A study of Mus musculus with 4 samples.

Results

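The signalling route from the cytokine LIF to the transcription factor STAT3 was followed in the RNA-seq data through 10 genes. They were chosen by name, with earlier results of these data known. The genes are the receptor chains Lifr and Il6st, the kinase Jak1, the transcription factor Stat3, its feedback inhibitor Socs3, and the downstream genes Pim1, Pim3, Bcl3, Junb and Gbx2. They are 10 of the 23235 gene symbols in the deposited expression files, and all 10 were among the 11733 genes that could be tested. The cells were HG165, an androgenetic haploid embryonic stem cell (haESC) line from C57BL/6 mice, which carries a paternal genome only. One group of 2 samples received RDF, a mixture of Repsox, which inhibits TGF-β signalling, DMH1, which inhibits BMP signalling, and Forskolin, which activates adenylyl cyclase, and the other group of 2 samples received the solvent DMSO. The study asked how RDF, which it uses to hold back the spontaneous diploidization of haESCs, alters gene expression. Both groups come from a single line, and its usual ES medium contained 15% serum and 1000 U/ml LIF, so the pathway was supplied with its ligand in all 4 samples if this medium was used for them. The sources used here give neither the RDF doses, the length of treatment nor a sort for haploid cells for these samples, and the methods say that most experiments left out feeder cells, without naming RNA-seq. They also do not say that the 2 samples of a group were separate cultures, so the p-values measure only the spread between these samples, which may be technical.

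LIF binds a receptor made of LIFR and gp130, the product of Il6st, and the JAK kinases held by these chains then phosphorylate STAT3, which moves to the nucleus. STAT3 activates genes that help mouse embryonic stem cells stay undifferentiated in serum with LIF, and it also activates Socs3, whose protein binds gp130 and JAK and so limits the signal. STAT proteins bind palindromic TTCNNNGAA elements, while cyclic AMP, which Forskolin raises, acts in part through CREB, a factor that binds the cyclic AMP response element (CRE) TGACGTCA or its shorter core TGACG. RNA-seq measures transcripts only, so phosphorylation of STAT3 and the activity of JAK were not observed.

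The 250 bases before each annotated protein-coding transcript start were searched for these elements on both strands, in 45999 windows of 22228 genes, with CRE cores counted also inside a full CRE. The 10 genes have 20 such windows. The STAT element was present in 1 of the 20 windows, against 6.52% of all windows, and that window belonged to Socs3. A full CRE was found in 2 windows, against 1.87% of all windows, and both were windows of Jak1 that hold the same site. A core was found in 3 windows, those 2 of Jak1 and the 1 of Junb, against 20% of all windows. The 3 sequences are shown because they hold these matches. All 3 genes are read on the minus strand of build NCBIM37, the sequences run 5′ to 3′ along the gene, and capitals mark the element. The Jak1 sequence is chr4:100937888-100938137, with the CRE from 42 to 35 bases before the upstream start. The Socs3 sequence is chr11:117830543-117830572, with the STAT element from 61 to 53 bases before a transcript start. That start and this stretch lie inside the annotated span of Socs3, downstream of its most upstream start. The Junb sequence is chr8:87502648-87502867, with the CRE core from 136 to 132 bases before the start.
Jak1: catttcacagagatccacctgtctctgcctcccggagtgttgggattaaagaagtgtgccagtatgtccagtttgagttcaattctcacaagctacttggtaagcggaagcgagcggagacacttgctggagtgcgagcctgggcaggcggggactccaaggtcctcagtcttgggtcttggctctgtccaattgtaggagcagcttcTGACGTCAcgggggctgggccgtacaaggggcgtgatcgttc
Socs3: cggccgggcagTTCCAGGAAtcggggggcg
Junb: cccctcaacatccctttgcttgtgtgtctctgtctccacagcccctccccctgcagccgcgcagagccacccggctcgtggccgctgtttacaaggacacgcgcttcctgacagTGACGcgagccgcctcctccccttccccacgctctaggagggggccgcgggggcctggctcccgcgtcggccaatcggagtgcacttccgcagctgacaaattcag
A match gives the position of these letters and not the binding of a factor.

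Of the 10 genes, 5 were higher in the RDF samples at an adjusted p under 0.05 (Junb, Il6st, Gbx2, Pim3 and Jak1), where 13.3% of all genes tested were higher, and 0 were lower, where 8.28% of all genes tested were lower. Expression is in FPKM, mapped fragments of a gene scaled to transcript length and library size, and differences are log2 fold changes of FPKM + 1, RDF minus DMSO, fitted with limma over the 11733 genes whose mean reached 1 FPKM and adjusted by the Benjamini-Hochberg method. The added 1 understates the change of genes of low expression. At an unadjusted p under 0.05 the same limma fit counted 5 of the 10 genes higher and 1 lower, where 22.5% and 15.5% of all genes tested were higher and lower. Both RDF values lay above both DMSO values for 6 of the 10 genes, against 37.1% of all genes tested, and below both for 1, against 28.5%. The median log2 fold change of the 10 genes was 0.16, beside 0.03 over all genes tested. Since the genes were chosen with earlier results known, these shares and medians describe the list and do not test it. The 5 ratios of mean FPKM that passed the test were between 1.19 and 1.41, and genes called in either direction had a median absolute log2 fold change of 0.44. In RNA from whole cultures, a change in the share of cells that express a gene cannot be told apart from a change in its RNA per cell. The number of these genes that were higher depended on which samples were fitted. Fewer of the 10 genes passed when any 1 sample was left out, and fewer of all genes tested passed too. The median log2 fold change of the 10 genes was then 0.17 without DMSO replicate 1 and 0.15 without DMSO replicate 2. It was 0.19 without RDF replicate 1 and 0.12 without RDF replicate 2. In these fits the lone sample of a group was assumed to vary like the other group. Exact permutation of the 4 samples was not used for single genes, because its smallest two-sided p with 2 in each group is 0.333.

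**Figure D1:**
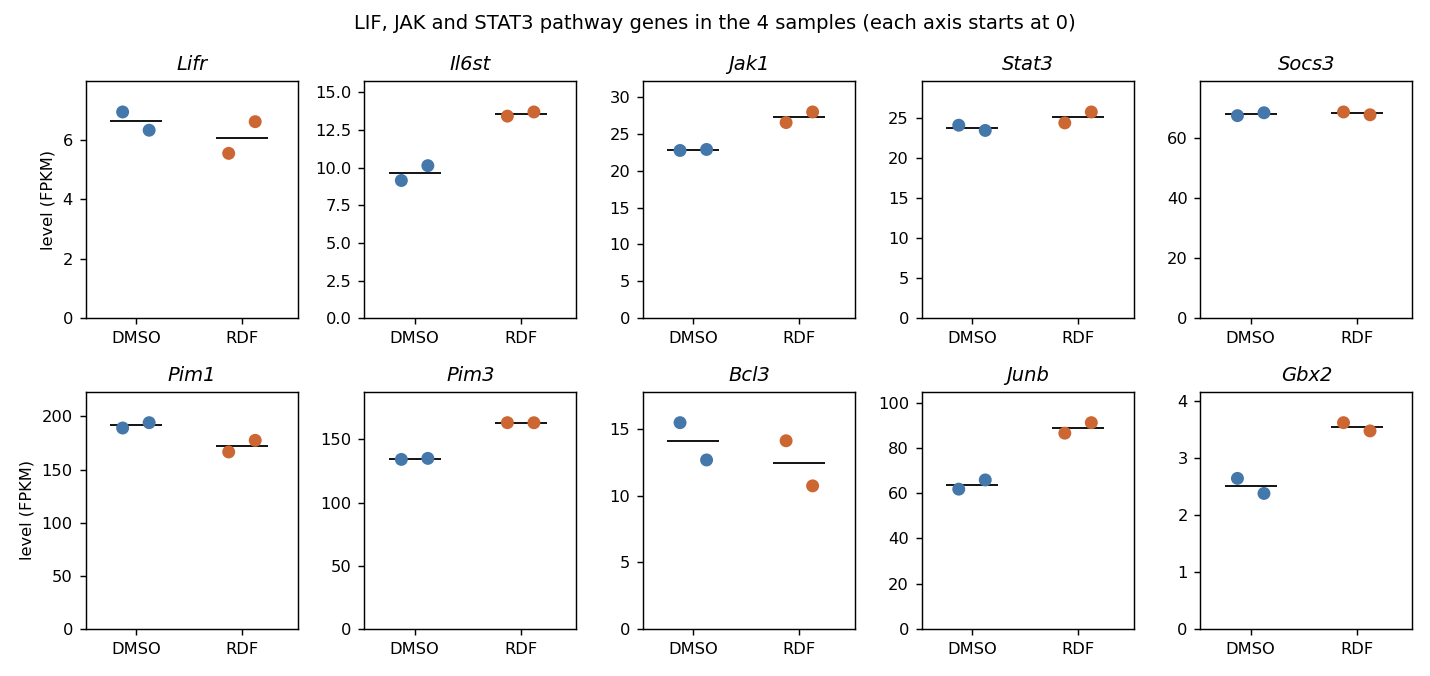
Expression in FPKM (vertical axes, each from 0) of the 10 genes in the 2 DMSO samples (blue) and the 2 RDF samples (orange); points are samples and horizontal lines are the group means. Il6st, Jak1, Stat3, Pim3, Junb and Gbx2 have both RDF points above both DMSO points, Pim1 has both below, and Lifr, Socs3 and Bcl3 overlap.

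Of the 2 receptor chains, Il6st was higher with RDF and Lifr gave no call, and the difference between the 2 was not tested. Lifr, the chain that binds LIF, lies at chr15:7079559-7147489 on the plus strand of NCBIM37. It was at 6.95 and 6.33 FPKM in DMSO replicates 1 and 2, and at 5.55 and 6.62 FPKM in RDF replicates 1 and 2. The groups overlapped, with the lowest value in RDF replicate 1 and the highest in DMSO replicate 1. Its log2 fold change was -0.11 with a 95% confidence interval from -0.37 to 0.14 (adjusted p = 0.473). With 2 samples a group, a fall or a rise within that interval remains possible. Il6st encodes gp130, the signalling chain that LIF shares with other cytokines of the IL-6 family, and lies at chr13:113265216-113297068 on the plus strand. It was at 9.14 and 10.1 FPKM in the DMSO samples and at 13.4 and 13.7 FPKM in the RDF samples. Both RDF values were above both DMSO values, and the means were 9.64 ± 0.697 FPKM (SD, n = 2) with DMSO and 13.6 ± 0.195 FPKM (SD, n = 2) with RDF, a ratio of 1.41. The log2 fold change was 0.45 (SE 0.077, adjusted p = 0.0121). The Il6st call was lost without RDF replicate 1 (adjusted p = 0.0702) and without RDF replicate 2 (adjusted p = 0.0823). Within a sample, Il6st exceeded Lifr by a factor of 1.32 and 1.60 in the DMSO samples and of 2.42 and 2.07 in the RDF samples, and these ratios did not overlap between the groups.

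Jak1 encodes a tyrosine kinase bound to the receptor chains and spans chr4:100824972-100937887 on the minus strand. Its levels were 22.7 and 22.9 FPKM with DMSO and 26.5 and 28.0 FPKM with RDF. The 2 RDF samples were above both DMSO samples, and the rise was the smallest of the 5 that passed the test, from a mean of 22.8 ± 0.096 to 27.2 ± 1.01 FPKM (SD, n = 2 each), a ratio of 1.19. The log2 fold change was 0.25 (SE 0.060, adjusted p = 0.0353). This call was lost when any 1 sample was left out, with adjusted p values of 0.0941 and 0.0879 without DMSO replicates 1 and 2 and of 0.0944 and 0.160 without RDF replicates 1 and 2, and also without the filter on low values (0.0577) or without a mean-variance trend (0.0655). The CRE printed above for Jak1 lies in its promoter window, and binding there was not measured.

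Stat3, the transcription factor at the centre of the route, spans chr11:100746412-100800854 on the minus strand. It was at 24.1 and 23.4 FPKM in the DMSO samples and at 24.4 and 25.7 FPKM in the RDF samples. Both RDF values were above both DMSO values, but the difference did not pass the test, with a log2 fold change of 0.07 (95% confidence interval -0.08 to 0.22, adjusted p = 0.421). Socs3, the feedback inhibitor that STAT3 induces, lies at chr11:117827393-117831361 on the minus strand. Its 4 values were 67.6 and 68.5 FPKM with DMSO and 68.8 and 67.8 FPKM with RDF. They interleaved, and the log2 fold change was 0.01 with a 95% confidence interval from -0.12 to 0.13 (adjusted p = 0.946). The sign of so small a difference turned with median-ratio scaling of the samples (-0.03). Socs3 is the gene with the STAT element, in a window before a transcript start that lies inside this span. The ratio of Socs3 to Stat3 within a sample was 2.81 and 2.92 with DMSO and 2.82 and 2.64 with RDF, and it overlapped between the groups.

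**Figure D2:**
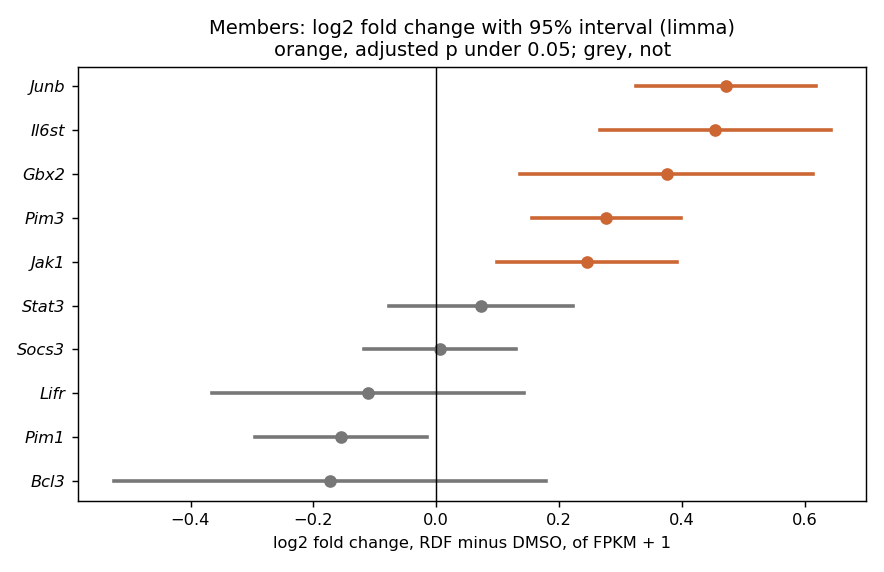
Log2 fold change of FPKM + 1, RDF minus DMSO (horizontal axis), of each of the 10 genes, with its 95% confidence interval from limma as a bar; orange marks an adjusted p under 0.05. The 5 orange genes lie between 0.25 and 0.47, and the intervals of Stat3, Socs3, Lifr and Bcl3 include 0, while that of Pim1 ends at -0.01.

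Pim1 and Pim3 encode closely related serine/threonine kinases that favour survival and growth, and both are targets of STAT3. They were the 2 most highly expressed of the 10 genes in every sample, and their mean levels lay above those of 95.3% and 94.4% of all genes tested. Pim1, at chr17:29627757-29632390 on the plus strand, measured 189 and 194 FPKM with DMSO and 167 and 178 FPKM with RDF. Both RDF values were below both DMSO values, and the log2 fold change of -0.16 (95% confidence interval -0.30 to -0.01, adjusted p = 0.106) did not pass the test after adjustment. Pim3, at chr15:88692616-88696150 on the plus strand, measured 134 and 135 FPKM with DMSO and 163 FPKM in both RDF samples. The groups did not overlap, at 135 ± 0.576 and 163 ± 0.039 FPKM (SD, n = 2 each), a ratio of 1.21. An SD of 2 near-equal values is a poor measure of spread. By limma the log2 fold change was 0.28 (SE 0.050, adjusted p = 0.0145). The Pim3 call was lost without RDF replicate 1 (adjusted p = 0.0880) and without RDF replicate 2 (adjusted p = 0.0939). Pim3 stood at 0.709 and 0.695 of the Pim1 level in the DMSO samples and at 0.980 and 0.919 in the RDF samples. The RNA levels of the 2 genes were thus closer together with RDF. This pair was chosen after the values were seen, and its ratio was not tested. Pim2, the remaining gene of the family, was at 22.1 ± 0.518 FPKM with DMSO and 20.1 ± 1.78 FPKM with RDF (SD, n = 2 each), with a log2 fold change of -0.14 (adjusted p = 0.247).

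Bcl3 encodes a nuclear protein of the IκB family that joins NF-κB dimers on DNA, and lies at chr7:20393811-20408119 on the minus strand. Its difference had the largest SE of the 10 genes (0.145), with levels of 15.5 and 12.7 FPKM with DMSO and 14.1 and 10.7 FPKM with RDF. The groups overlapped, with the highest value in DMSO replicate 1 and the lowest in RDF replicate 2. The log2 fold change of -0.17 had a 95% confidence interval from -0.52 to 0.18 (adjusted p = 0.421), and it was 0.010 without RDF replicate 2. Among the genes of the NF-κB family that were listed with it, Nfkbia, an inhibitor of NF-κB, rose from 41.4 ± 2.59 to 49.1 ± 0.808 FPKM (SD, n = 2 each; adjusted p = 0.0434). This call was lost with median-ratio scaling (0.0641), without the filter on low values (0.0784) and without a mean-variance trend (0.0857). The subunit genes Nfkb1 (adjusted p = 0.149) and Nfkb2 (adjusted p = 0.988) did not pass.

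Junb, an AP-1 transcription factor gene with a single exon at chr8:87500811-87502617 on the minus strand, had the largest log2 fold change of FPKM + 1 of the 10, while with a pseudocount of 0.1 Il6st (0.49) and Gbx2 (0.48) stood just above it (0.48). Its levels were 61.8 and 65.9 FPKM with DMSO and 86.6 and 91.2 FPKM with RDF. Both RDF samples were above both DMSO samples, the means were 63.9 ± 2.88 and 88.9 ± 3.29 FPKM (SD, n = 2 each), and the ratio was 1.39. The log2 fold change was 0.47 (SE 0.060, adjusted p = 0.00548), and the adjusted p was 0.0548 without RDF replicate 2. The CRE core printed above for Junb is shared with 20% of all windows.

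Of the other AP-1 genes listed, the 2 Jun genes did not pass the test and the 4 Fos genes were higher. Jun had about the same level as Junb in the DMSO samples, at 63.4 ± 2.95 FPKM with DMSO and 62.1 ± 3.14 FPKM with RDF (SD, n = 2 each; log2 fold change -0.03, adjusted p = 0.782). The ratio of Junb to Jun was therefore 1.01 in both DMSO samples and 1.45 and 1.42 in the RDF samples. Jund had a log2 fold change of -0.18 (adjusted p = 0.170). The proteins of the Fos genes pair with those of the Jun genes. Fos rose from 93.4 ± 2.60 to 155 ± 3.29 FPKM (SD, n = 2 each; log2 fold change 0.73, adjusted p = 0.00129). Fosb had a log2 fold change of 0.60 (adjusted p = 0.0106), Fosl1 of 0.61 (adjusted p = 0.0170) and Fosl2 of 0.70 (adjusted p = 0.00655). Fosl1 passed the filter on low values only through the RDF samples, since its level was 0.753 and 0.638 FPKM with DMSO and 1.58 FPKM in both RDF samples, so it had to differ to be tested.

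**Figure D3:**
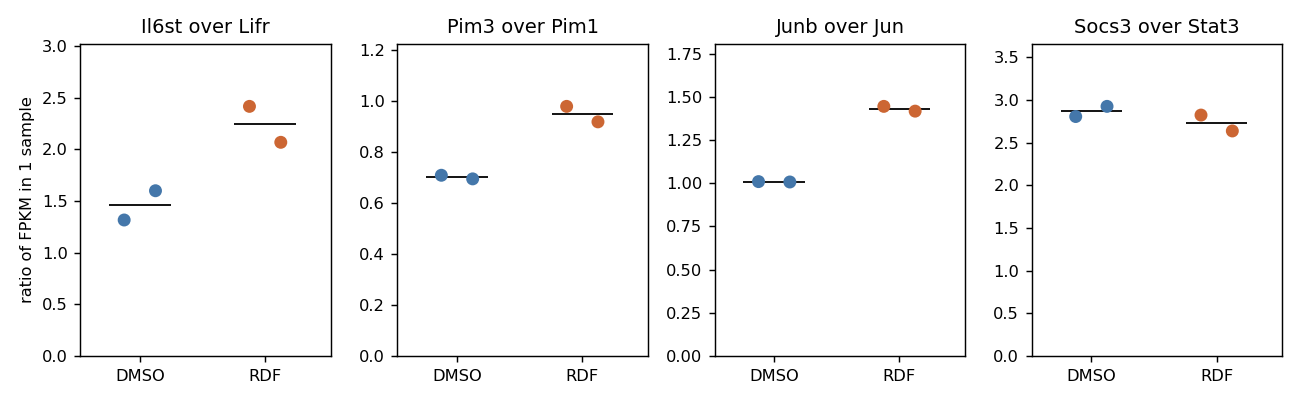
Ratio of the FPKM of 2 genes within each sample (vertical axes, each from 0) for 4 pairs, with DMSO samples in blue, RDF samples in orange and group means as lines. The ratios Il6st over Lifr, Pim3 over Pim1 and Junb over Jun do not overlap between the groups, and Socs3 over Stat3 does; the pairs were chosen after the values were seen and were not tested.

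Gbx2, a homeobox transcription factor gene that acts downstream of STAT3 in embryonic stem cells, lies at chr1:91824537-91829865 on the minus strand and had the lowest expression of the 10. It was at 2.65 and 2.38 FPKM with DMSO and at 3.63 and 3.48 FPKM with RDF. The groups did not overlap, at 2.52 ± 0.187 and 3.56 ± 0.103 FPKM (SD, n = 2 each), a ratio of 1.41, and the log2 fold change was 0.37 (SE 0.098, adjusted p = 0.0426). From the estimated depth, these levels correspond to about 110 and 112 fragments in the DMSO samples and 190 and 166 in the RDF samples. The call was lost when any 1 sample was left out, with adjusted p values of 0.0648 and 0.140 without DMSO replicates 1 and 2 and of 0.163 and 0.143 without RDF replicates 1 and 2. It was also lost without the filter on low values (0.0929), with median-ratio scaling (0.0520) and with quantile normalization (0.0675). The related gene Gbx1 was below the filter, with a mean of 0.155 FPKM in the DMSO samples and 0.280 FPKM in the RDF samples.

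In the DMSO samples the 10 genes were ordered Pim1, Pim3, Socs3, Junb, Stat3, Jak1, Bcl3, Il6st, Lifr and Gbx2 from high to low FPKM, and the ranges of no 2 neighbours overlapped. The mean of Pim1 was 76.2 times that of Gbx2. In the RDF samples Junb stood above Socs3, Jak1 above Stat3 and Il6st above Bcl3, and in each pair the order was the opposite of that with DMSO. The ranges of Il6st and Bcl3 overlapped in the RDF samples, so these neighbours were not distinguishable, and the mean of Pim1 was 48.4 times that of Gbx2.

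The other genes of the pathway were read from lists of ligands, receptors, kinases, STATs, inhibitors, targets and relatives. These lists, too, were chosen with earlier results of these data known, so their counts do not test them. Of 75 listed genes besides the 10, 64 were expressed enough to be tested, and 16 of these were higher and 0 lower, against 13.3% and 8.28% of all genes tested. Lif and Fosl1 passed the filter on low values only through the RDF samples, so they had to differ, and without them 14 of 62 were higher. At an unadjusted p under 0.05 the limma fit gave 23 of the 64 higher and 4 lower, against 22.5% and 15.5% of all genes tested. Their median log2 fold change was 0.08, both RDF values lay above both DMSO values for 33 of them and below for 13, against 37.1% and 28.5% of all genes tested, and 18 overlapped. In the 4 fits with 1 sample left out, the number higher was smaller or the same. Over all genes tested, the number higher was smaller in each of them. Of the 16 calls, those of Klf4 and Fos were kept in each of these 4 fits, and those of Tfcp2l1, Fosb and Fosl2 were lost only without RDF replicate 2. Lif and Fosl1 were not tested without either RDF replicate, since their means then fell below the filter. The other 9 calls were lost without RDF replicate 1 and without RDF replicate 2. Among these, those of Jak3, Socs4 and Sos1 were lost also without either DMSO replicate, and that of Nfkbia also without DMSO replicate 1, as was the call of Lif. One gene, Cish, a SOCS family member best known as a target of STAT5, was lower without DMSO replicate 1 (adjusted p = 0.0259).

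**Figure D4:**
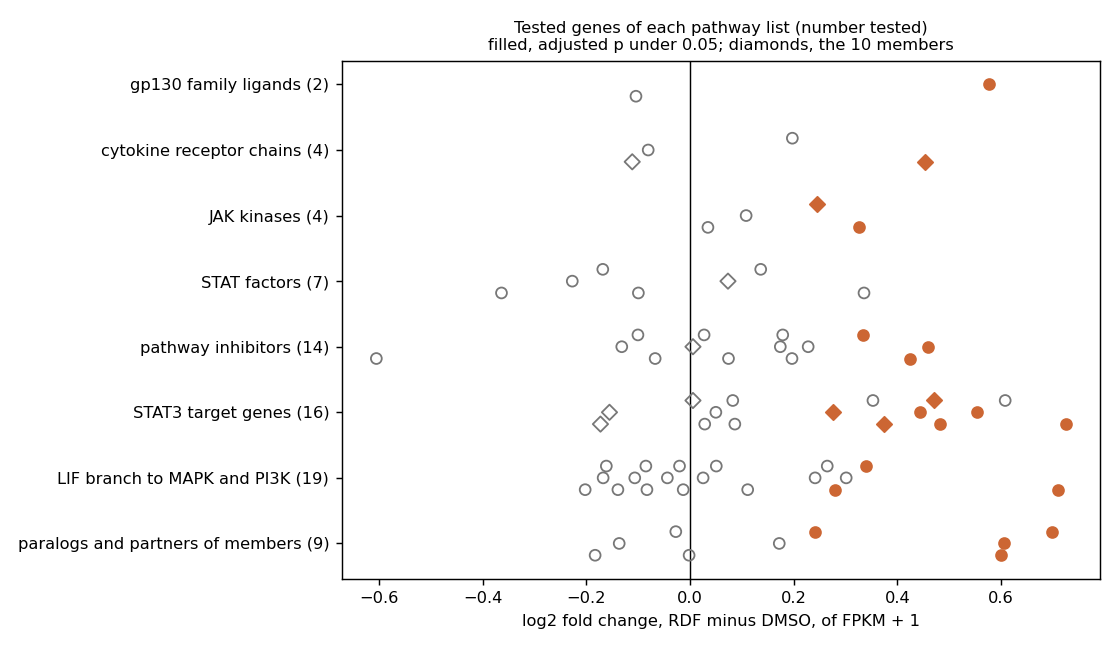
Log2 fold change of FPKM + 1, RDF minus DMSO (horizontal axis), of each tested gene of the 8 pathway lists (rows, with the number tested), filled where the adjusted p is under 0.05; diamonds are the 10 genes, and Socs3 appears both as an inhibitor and as a target. Filled points all lie to the right of 0, and they make up 7 of the 16 points among the STAT3 targets.

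Lif itself was called higher among the ligands, at 0.582 and 0.727 FPKM with DMSO and 1.56 and 1.38 FPKM with RDF. The ratio of the means was 2.24 and the log2 fold change 0.58 (SE 0.122, adjusted p = 0.0230). This is a low level, about 22.9 and 32.5 fragments in the DMSO samples and 77.4 and 62.4 in the RDF samples, and Lif passed the filter only through the RDF samples, so it had to differ to be tested. Of the 7 other ligands listed, Ctf1 was tested and did not pass (adjusted p = 0.440), and Il6, Il11, Osm, Cntf, Clcf1 and Il27 were below the filter. The other receptor chains gave no call. Cntfr, the binding chain for CNTF, was at 13.0 ± 0.899 and 15.1 ± 0.605 FPKM (SD, n = 2 each; adjusted p = 0.117), Il11ra1 did not pass (adjusted p = 0.669), and Il6ra and Osmr were below the filter. Il6ra was at 0.907 and 0.975 FPKM with DMSO and at 0.566 and 0.609 FPKM with RDF, without a test.

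Jak3 was the other JAK kinase that rose, from 8.08 ± 0.0445 to 10.4 ± 0.725 FPKM (SD, n = 2 each; log2 fold change 0.33, adjusted p = 0.0352), and Jak2 (adjusted p = 0.496) and Tyk2 (adjusted p = 0.780) did not pass. The Jak3 call was lost with quantile normalization (0.0525) and without the filter on low values (0.0731). None of the 6 STAT genes besides Stat3 passed the limma test, where 13.3% of all genes tested were higher and 8.28% lower. At an unadjusted p under 0.05 the limma counts were 1 higher and 1 lower, against 22.5% and 15.5% of all genes tested. The median log2 fold change of the 6 STAT genes was -0.13. Stat5b had the highest value of the 6, a log2 fold change of 0.34 (adjusted p = 0.0636), and Stat2 (-0.17, adjusted p = 0.218), Stat4 (-0.23, adjusted p = 0.221), Stat5a (-0.10, adjusted p = 0.524) and Stat6 (0.14, adjusted p = 0.206) were lower in value.

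Among the inhibitors, 3 of 13 tested genes besides Socs3 were higher, against 13.3% of all genes tested. Socs6 rose from 16.0 ± 1.03 to 21.8 ± 0.397 FPKM (SD, n = 2 each; log2 fold change 0.42, adjusted p = 0.0110). Socs4 (log2 fold change 0.33, adjusted p = 0.0233) and Pias1, which encodes a SUMO ligase that restrains STAT proteins (0.46, adjusted p = 0.0165), were the other two. Socs4 and Socs6 are better known for acting on receptor tyrosine kinases than on gp130. Socs1 (-0.13, adjusted p = 0.253), Socs2 (0.18, adjusted p = 0.195), Socs7 (0.17, adjusted p = 0.184) and Cish (-0.60, adjusted p = 0.0603) did not pass. The Cish levels were 1.96 and 2.88 FPKM with DMSO and 0.984 and 1.50 FPKM with RDF. Both RDF values were lower. Socs5 was below the filter.

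Of the 16 listed targets of STAT3, 7 were higher and 0 lower, against 13.3% and 8.28% of all genes tested. Without the 6 downstream genes described first, 4 of 10 were higher, with a median log2 fold change of 0.40. As the list was chosen with earlier results known, its counts are a description only. At an unadjusted p under 0.05 the counts over the 16 were 9 higher and 1 lower by limma, against 22.5% and 15.5% of all genes tested. Klf4, a pluripotency transcription factor, was at 51.4 and 48.4 FPKM with DMSO and 75.0 and 72.3 FPKM with RDF. The groups were well separated (log2 fold change 0.55, SE 0.058, adjusted p = 0.00320). Tfcp2l1, which encodes a transcription factor that mediates self-renewal by LIF, was at 29.4 and 30.5 FPKM with DMSO and 39.1 and 45.7 FPKM with RDF (log2 fold change 0.48, adjusted p = 0.0129). Mcl1, a survival factor of the BCL2 family, rose from 192 ± 12.6 to 262 ± 6.20 FPKM (SD, n = 2 each; log2 fold change 0.44, adjusted p = 0.00816). Fos, described with the AP-1 genes, was also higher. Klf5 (log2 fold change 0.05, adjusted p = 0.637), Myc (0.35, adjusted p = 0.0696), Bcl2l1 (0.09, adjusted p = 0.400), Cebpb (0.08, adjusted p = 0.868), Cebpd (0.61, adjusted p = 0.0701) and Icam1 (0.03, adjusted p = 0.712) did not pass. Several of these genes, Fos, Junb, Klf4 and Mcl1 among them, also respond to other signals, and which signal acted on them was not tested.

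LIF receptors also activate the MAPK and PI3K routes, and 3 of the 19 genes listed for them were higher, a share near the 13.3% of all genes tested. Pik3r1, a regulatory subunit of PI3K, was at 1.39 and 1.14 FPKM with DMSO and 2.51 and 2.91 FPKM with RDF (log2 fold change 0.71, adjusted p = 0.0119). Sos1, which encodes an exchange factor for RAS, was also higher (log2 fold change 0.34, adjusted p = 0.0443), and its call was lost with median-ratio scaling (0.0536), with quantile normalization (0.0717) and without the filter on low values (0.0957). The median log2 fold change of the 19 genes was -0.01.

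The cell identity of the samples was checked with marker genes. For each list of markers, the shares to set beside the calls are the 13.3% higher and 8.28% lower of all genes tested. All 10 embryonic stem cell markers listed were expressed above the filter, and 4 were higher and 4 lower with RDF. Zfp42, Sall4, Fbxo15 and Sox2 were higher, and Dppa5a, Utf1, Tdgf1 and Pou5f1 were lower. The summed level of the 10 markers was 7919 and 7856 FPKM with DMSO and 5166 and 4698 FPKM with RDF. Most of it came from Dppa5a, which fell from 5516 ± 32.3 to 3035 ± 277 FPKM (SD, n = 2 each; adjusted p = 0.00421 by limma). The 11 fibroblast markers, which feeder cells would carry, summed to 29.9 and 28.1 FPKM with DMSO and 19.9 and 22.9 FPKM with RDF, with Dcn higher and Col1a1, Col1a2 and Postn lower of 8 tested. The 8 primitive endoderm markers summed to 356 and 341 FPKM with DMSO and to 299 and 293 FPKM with RDF, nearly all of it Sparc, which fell, while Gata6 rose. The 8 blood and immune markers summed to between 83.5 and 93.8 FPKM in the 4 samples. Most of this was Cd68, at 67.1 ± 2.33 FPKM with DMSO and 64.9 ± 7.59 FPKM with RDF (SD, n = 2 each). Coro1a was at a mean of 8.64 FPKM with DMSO and 6.03 FPKM with RDF. Of the 8 markers, 3 (Ptprc, Emr1 and Csf1r) stayed under 0.3 FPKM in every sample, and Kit, which rose, was the 1 gene called. The part of these shifts in the values of the pathway genes was not tested.

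FPKM do not carry the number of fragments, and the depth was estimated from the whole-fragment steps of low values at 9770000 to 12360000 fragments a sample. Of the 10 genes, 5 overlap an exon of a gene on the opposite strand in the NCBIM37 annotation: Gbx2 by 1372 bases, Pim1 by 468, Bcl3 by 161, Stat3 by 72 and Jak1 by 4. The library kit keeps the strand, but whether the counting used it is not given in the sources used here, so reads of the partners, such as D130058E05Rik for Gbx2, may be included in these values.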

How the data were processed

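RNA-seq was compared in 2 DMSO and 2 RDF samples of HG165, grouped by their titles. Libraries were made from 150 ng of RNA with a stranded mRNA kit. The authors deposited FPKM per gene, estimated with Cufflinks 2.2.1 after mapping with TopHat2 2.0.14 and Bowtie2 2.1.0 to mm9, as the submitters' processing notes and the paper's methods give them. FPKM already divide by library depth and transcript length. Here log2(FPKM + 1) was taken for the 11733 genes whose mean reached 1 FPKM and fitted with limma 3.58.1 in R 4.3.3 (lmFit, eBayes with a trend), RDF against DMSO, with Benjamini-Hochberg adjustment and a threshold of 0.05. The fit was tested on simulated data. The members and the lists were chosen with earlier results of these data known. Named are the 10 members, listed genes past the threshold and relatives of members whatever their p, except 2 genes that are counted in their lists but not reported here. Hras and Adgre1 were read under the older symbols Hras1 and Emr1. Positions and promoter windows came from the GENCODE annotation of NCBIM37, the same assembly as mm9, where 21828 symbols were found. Depth was estimated from genes with a single transcript of at least 1500 nucleotides. At the estimated depths, 42.3% to 47.2% of the low values used came within 0.1 of a whole fragment, so fragment numbers are approximate and no count test was run. Alternatives were another pseudocount, other filters, 2 scalings, no trend, a replicate block and leaving out each sample.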

Additional observations from a re-analysis of the deposited data

How the results depend on the processing

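The 5 calls among the 10 genes were kept with a pseudocount of 0.1. With a minimum mean of 5 FPKM, Gbx2 was not tested and the other 4 were kept, and the median log2 fold change over the 9 genes left was 0.073. Without a filter on low values, the fit covered all of the 23235 symbols except the 5223 that were 0 in every sample. In this larger set 942 genes were higher and 606 lower, with 3 of the 10 genes higher (Jak1 and Gbx2 were lost). Median-ratio scaling and quantile normalization kept 4 of the 5 (Gbx2 was lost), and no mean-variance trend kept 4 (Jak1 was lost). None of the 10 genes was called lower in any of these fits. With 1 sample left out at a time, genes higher ranged from 311 to 1188 and genes lower from 238 to 763, those of the 10 genes that were higher from 0 to 3, and pathway genes from 2 to 16 higher and from 0 to 1 lower. The median log2 fold change of the 10 genes then ranged from 0.12 to 0.19. The causes of these differences between fits were not tested.

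Among the genes refitted, directions turned for Socs3 and Bcl3, neither of which was called. The log2 fold change of Socs3 was -0.028 with median-ratio scaling, and with 1 sample left out it ranged from -0.0043 (without DMSO replicate 1) to 0.016, with -0.0040 without RDF replicate 1. That of Bcl3 ranged from -0.36 to 0.010 (without RDF replicate 2). With a replicate block, 1651 genes were higher and 1066 lower, 4 of the 10 genes were higher (Gbx2 had an adjusted p of 0.0511), and 18 pathway genes were higher (Sos1 was lost, adjusted p = 0.0536) and 1 lower (Cish, log2 fold change -0.60, adjusted p = 0.0196). Across genes, which are no independent replicates, deviations of same-numbered samples correlated at r = 0.134 (Pearson) and rho = 0.114 (Spearman), and the sources do not say what a number stands for, so the samples were not treated as pairs. Called genes of low level, such as Lif and Fosl1, rest on few fragments, and the effect of depth on their calls was not tested.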
